A study of Mus musculus with 4 samples.

Results

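The 10 genes described here mark the epithelium of the lung, the cell layer that a sort for mesenchymal cells is meant to leave behind. They are Sftpc, Sftpb, Sftpa1, Sftpd, Epcam, Nkx2-1, Ager, Hopx, Cldn18 and Scgb1a1, taken by gene name, and each of the 10 was found once among the 31247 genes of the count table. The RNA came from Pdgfrb-GFP positive cells sorted by flow cytometry from mouse lungs on postnatal day 7, which the labels call myofibroblasts, with about 300000 to 350000 cells per sample. A set of 2 wild-type samples (WT, genotype label Wild type PDGFRb-GFP) was compared with 2 conditional knockout samples (CKO), which carry PDGFRb-GFP together with Tbx4-rtTA, Tet-O-Cre and the Dnmt1-D/D allele pair. Both groups carry the GFP reporter. In CKO a Tbx4-driven transactivator switches on a Cre recombinase that acts on Dnmt1, the gene of the maintenance DNA methyltransferase, and Tbx4 is a gene of lung mesenchyme rather than of epithelium. Per the labels 2 lungs were taken per genotype, and the labels do not say which animals were littermates, so a p-value here reflects only how far the 4 libraries lie apart. Libraries are called WT A, WT B, CKO A and CKO B in column order, and the letters pair nothing.

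The gas-exchange surface of the lung is lined by flat alveolar type 1 cells and by cuboidal alveolar type 2 cells, which make surfactant, the lipid and protein film that keeps alveoli open. Airways are lined by club, ciliated and other cells. Type 2 cells devote much of their messenger RNA to surfactant proteins, and the transcription factor Nkx2-1 is needed to form lung epithelium and to keep surfactant genes active.

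Depth ran from 23071657 to 26420648 counted reads per library. WT B had reads on 27643 genes and the other libraries on 21883 to 22532. Reads of the Y-linked genes Ddx3y, Eif2s3y, Kdm5d and Uty were present in CKO A (399 to 2494 per gene) and stood at 0 in the other libraries. The column names of WT B, CKO A and CKO B have a number in common that is missing from that of WT A, and its meaning is not stated. Dnmt1 was at 144 CPM (a gene's reads scaled to a common library size with TMM factors) in WT A and 115 in WT B, against 78.1 in CKO A and 29.5 in CKO B, and its difference did not pass in edgeR (adjusted p = 0.310). Without CKO A it passed (edgeR adjusted p = 3.8e-05). In this and every fit that leaves out a library, one genotype is a single library, which is assumed to vary like the pair of the other genotype. The defining genes of the labelled cells were abundant, with Pdgfrb at 317 to 507 CPM and Col1a1, a fibrillar collagen gene, at 9880 to 19362 CPM.

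All 10 epithelial genes had reads in each of the 4 libraries. Their summed reads numbered 1423 in WT A and 5121 in WT B, against 4078 in CKO A and 1883 in CKO B. As a share of all reads this was 0.00617% in WT A (95% Clopper-Pearson interval 0.00585% to 0.00650%) and 0.0199% in WT B (0.0194% to 0.0205%), against 0.0154% in CKO A (0.0150% to 0.0159%) and 0.00799% in CKO B (0.00763% to 0.00835%). The high and the low library of each genotype lay far outside each other's counting interval, and the libraries of one genotype bracketed those of the other. Intervals cover counting error only and leave out variation between samples. PCR copies are not independent molecules, so the intervals can be too narrow even for counting error. In a bulk library a few cells rich in these RNAs and many cells with little of them cannot be told apart. A library of purified epithelium was not analysed here, so the shares are not turned into numbers of cells.

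**Figure D1:**
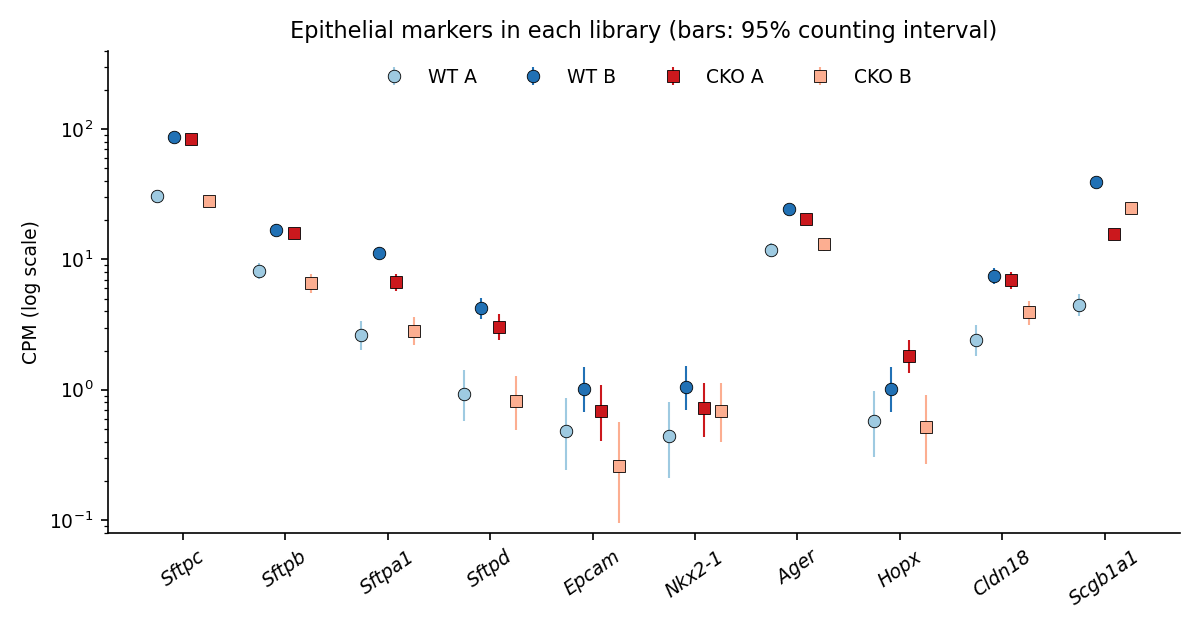
Level of each of the 10 epithelial genes (horizontal axis) in CPM on a log scale (vertical axis), with 1 point per library (circles WT, squares CKO) and bars for the 95% Poisson counting interval. WT B is the highest point for 9 of the 10 genes, and WT A or CKO B is the lowest for all 10.

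Promoter sequences are shown for their CG dinucleotides, the sites at which Dnmt1 copies methylation. The RefSeq promoter table on GRCm38.p6 held entries for 7 of the 10 genes, with none for Sftpc, Sftpd and Scgb1a1. The 250 bases before the start site are printed for a pair of surfactant genes, for the type 1 cell gene Ager and for the pan-epithelial gene Epcam, 5′ to 3′ on the coding strand, with each CG in capitals.
Sftpb (chr6:72304360-72304609, + strand): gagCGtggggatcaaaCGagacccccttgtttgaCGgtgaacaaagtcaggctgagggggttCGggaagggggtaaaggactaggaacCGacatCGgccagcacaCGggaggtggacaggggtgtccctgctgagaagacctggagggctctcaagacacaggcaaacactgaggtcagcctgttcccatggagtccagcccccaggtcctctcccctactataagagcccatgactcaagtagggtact
Sftpa1 (chr14:41131538-41131787, + strand): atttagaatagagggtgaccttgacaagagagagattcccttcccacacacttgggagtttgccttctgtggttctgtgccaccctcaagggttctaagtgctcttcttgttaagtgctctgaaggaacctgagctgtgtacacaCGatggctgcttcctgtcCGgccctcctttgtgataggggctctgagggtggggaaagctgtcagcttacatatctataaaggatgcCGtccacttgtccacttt
Ager (chr17:34597600-34597849, + strand): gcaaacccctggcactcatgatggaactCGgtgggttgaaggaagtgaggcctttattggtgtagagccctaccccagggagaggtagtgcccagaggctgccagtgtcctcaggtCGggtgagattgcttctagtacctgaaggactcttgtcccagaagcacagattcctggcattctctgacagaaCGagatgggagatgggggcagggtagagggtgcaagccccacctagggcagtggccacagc
Epcam (chr17:87635729-87635978, + strand): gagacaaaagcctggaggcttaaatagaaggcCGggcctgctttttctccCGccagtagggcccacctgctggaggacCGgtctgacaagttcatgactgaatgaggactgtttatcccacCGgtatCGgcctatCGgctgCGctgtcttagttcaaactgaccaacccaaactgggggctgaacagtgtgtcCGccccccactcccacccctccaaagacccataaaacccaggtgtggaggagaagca
The window held 7 CG dinucleotides in Sftpb, 3 in Sftpa1, 3 in Ager and 8 in Epcam. Over all 32851 promoters of the table the median was 6, with quartiles of 2 and 16. Hopx, with 18 at one of its start sites, had the most among the 9 windows of the 7 genes. The hexamer CTCAAG, which holds the CAAG core bound by Nkx2-1, was searched on both strands (CTTGAG on the other). It stood at 100 and at 15 bases before the start in Sftpb and at 166 bases before it in Sftpa1, one Hopx window (chr5:77115124-77115373, - strand) held 1 copy 112 bases before the start, and the other 6 windows held none. Of all promoters 13.3% held it at least once. A match is a description of the letters and not a binding site, and methylation was not measured in these files.

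The 4 surfactant genes held 67.6% of the reads of the 10 genes in WT A and 61.6% in WT B, against 70.3% in CKO A and 47.0% in CKO B. Sftpc encodes surfactant protein C, the hydrophobic peptide made by type 2 cells (chromosome 14, 70520949 to 70524081, GRCm38). It was at 30.5 CPM in WT A and 86.5 in WT B, against 83.5 in CKO A and 28.0 in CKO B. WT B and CKO A were thus high and WT A and CKO B low, and the genotypes overlapped. Sftpb encodes surfactant protein B, which is needed for breathing after birth (chromosome 6, 72304610 to 72314371). Its level was 8.21 CPM in WT A and 16.97 in WT B, against 15.8 in CKO A and 6.56 in CKO B. The order of the 4 libraries was the same as for Sftpc.

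Sftpa1 and Sftpd encode collectins, surfactant proteins that bind microbes. Sftpa1 (chromosome 14, 41131782 to 41136452) was at 2.63 CPM in WT A and 11.2 in WT B, against 6.66 in CKO A and 2.85 in CKO B. Sftpd (chromosome 14, 41172214 to 41185149) was at 0.922 CPM in WT A and 4.22 in WT B, against 3.05 in CKO A and 0.820 in CKO B. Both genes showed the widest gap between the WT libraries among the surfactant genes.

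Ager, Hopx and Cldn18, which mark type 1 cells or alveolar epithelium, were also higher in WT B and CKO A than in the other library of the genotype. Ager, the receptor for advanced glycation end products and a surface marker of type 1 cells (chromosome 17, 34597862 to 34600936), was at 11.9 CPM in WT A and 24.2 in WT B, against 20.4 in CKO A and 13.0 in CKO B. Hopx, a homeodomain-only protein gene found in type 1 cells and also in heart muscle (chromosome 5, 77086988 to 77115121), was at 0.571, 1.02, 1.83 and 0.518 CPM in the same order. Hopx was the gene with its highest level in CKO A rather than in WT B. Its WT values rested on 13 and 27 reads. Cldn18, a tight junction gene of alveolar epithelium (chromosome 9, 99689461 to 99717267), was at 2.42 CPM in WT A and 7.47 in WT B, against 6.93 in CKO A and 3.93 in CKO B.

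Epcam and Nkx2-1 were near the limit of depth. Epcam, an adhesion protein gene of nearly all epithelia (chromosome 17, 87635979 to 87651129), had 11 reads in WT A and 27 in WT B, against 18 in CKO A and 6 in CKO B. Nkx2-1 (chromosome 12, 56531958 to 56536908) had 10, 28, 19 and 16 reads. A read was worth 0.0377 (WT B) to 0.0439 (WT A) CPM, and Nkx2-1 did not differ between CKO A and CKO B beyond counting error (ratio 1.05, 95% interval 0.510 to 2.18). Antisense genes overlap Hopx, Nkx2-1 and Cldn18, and strand use in counting is not given in the sources used here. The partner Hopxos had at most 1 read in a library and Gm26973, opposite Nkx2-1, at most 4. Gm16004, opposite Cldn18, was not matched by name in the table.

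Scgb1a1, the secretoglobin that club cells of the airway release (chromosome 19, 9083636 to 9087958), went its own way. Its level was 4.48 CPM in WT A and 39.5 in WT B, against 15.6 in CKO A and 24.6 in CKO B. CKO B, the lowest library for Sftpc, was the second highest for Scgb1a1, and WT A was the lowest.

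Levels of different genes were compared per length, as CPM divided by the kilobases of merged exons (RPKM). Sftpc had a mean of 55.2 over the 4 libraries (27.0 to 83.7) and Scgb1a1 one of 44.2 (9.41 to 83.0). Their order differed between libraries. Sftpc was above Scgb1a1 in WT A (29.5 against 9.41 RPKM) and CKO A (80.8 against 32.9), nearly level with it in WT B (83.7 against 83.0) and below it in CKO B (27.0 against 51.8). Ager followed at 8.11 (5.54 to 11.3) and Sftpb at 6.04 (3.33 to 8.63), with Ager above Sftpb in each of the 4 libraries although their ranges overlapped. Sftpa1 was at 2.04, Cldn18 at 1.16, Sftpd at 0.932, Hopx at 0.649, Epcam at 0.279 and Nkx2-1 at 0.256. On the same scale Pdgfrb had a mean of 76.4 RPKM (57.9 to 92.5) and Pdgfra, a receptor of alveolar myofibroblasts, 45.8 (32.3 to 59.5). The range of Sftpc thus overlapped that of Pdgfrb, whose reporter marks the sorted cells, through WT B and CKO A. In WT A and CKO B Sftpc lay below the ranges of both Pdgfrb and Pdgfra. Col1a1 lay far higher, at 2018 (1505 to 2950).

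These genes differed widely between libraries of one genotype. For Sftpc, Sftpb, Sftpd and Epcam the highest and lowest libraries, WT B and CKO B, were of different genotypes. WT B exceeded WT A for 10 of 10 genes, with the 95% counting interval of the ratio above 1 for 9 of them. The ratio ran from 1.78 (Hopx) to 8.82 (Scgb1a1), with a median of 2.62, where the median over 15210 tested genes was 1.00. CKO A exceeded CKO B for 9 of 10 genes, with the interval above 1 for 8, a median of 2.38 and 1.00 over all tested genes. Both counts were the same with TMM, with RLE size factors and with library size alone. The total read count was 1.11 times higher in WT B than in WT A and 1.12 times higher in CKO A than in CKO B. WT B also had reads on more genes than any other library and CKO A was the one with Y-linked reads, and the part of either in the result was not tested.

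For Sftpc the ratio was 2.84 between the WT libraries (2.61 to 3.09) and 2.99 between the CKO libraries (2.74 to 3.27). For Sftpd it was 4.58 (2.86 to 7.69) and 3.72 (2.23 to 6.49), and for Ager 2.04 (1.77 to 2.36) and 1.56 (1.35 to 1.81). Scgb1a1 was the exception in CKO, with WT B at 8.82 times WT A (7.19 to 10.9) and CKO A at 0.635 times CKO B (0.558 to 0.722). Of the 10 genes 8 were at least 1.5 times higher in WT B than in WT A and also in CKO A than in CKO B. Nkx2-1 and Scgb1a1 were not. Of all tested genes 237, or 1.56%, met the same condition, a bound set after the values had been seen.

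**Figure D2:**
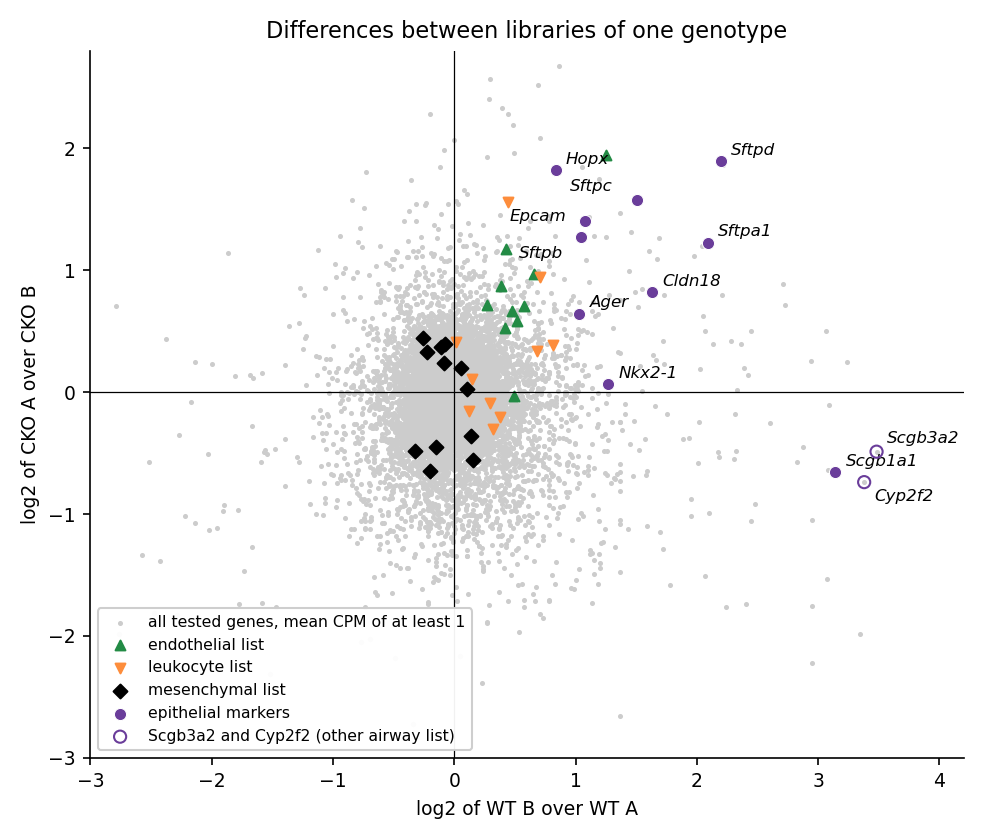
Log2 ratio of WT B to WT A (horizontal axis) against log2 ratio of CKO A to CKO B (vertical axis) for 13073 tested genes with a mean of at least 1 CPM (grey, 25 more lie outside the axes), the 10 epithelial genes (purple), 2 other airway genes (open circles) and the tested genes of 3 other lists. Of the epithelial genes 9 lie to the upper right of the origin, and Scgb1a1 lies to the lower right beside Scgb3a2 and Cyp2f2.

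Within a library the alveolar genes kept closer proportions to each other than to Scgb1a1. Per 100 reads of Sftpc there were 26.9 of Sftpb in WT A and 19.6 in WT B, against 18.96 in CKO A and 23.5 in CKO B. For Ager the values were 38.9 in WT A and 28.0 in WT B, against 24.4 in CKO A and 46.6 in CKO B. Ager took a larger part in the libraries low in Sftpc. For Scgb1a1 they were 14.7 in WT A (95% interval 11.8 to 18.1) and 45.7 in WT B (42.4 to 49.1), against 18.7 in CKO A (16.8 to 20.8) and 88.1 in CKO B (78.6 to 98.8). The spread of Scgb1a1 against Sftpc was wider than that of either alveolar gene.

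Scgb1a1 took 7.17% of the reads of the 10 genes in WT A (5.88% to 8.63%) and 20.4% in WT B (19.3% to 21.6%), against 10.1% in CKO A (9.17% to 11.04%) and 30.3% in CKO B (28.3% to 32.5%). Sftpc took 48.8% in WT A and 44.8% in WT B, against 53.8% in CKO A and 34.4% in CKO B (32.3% to 36.6%). The make-up of the epithelial reads therefore differed between libraries of one genotype by more than counting error.

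**Figure D3:**
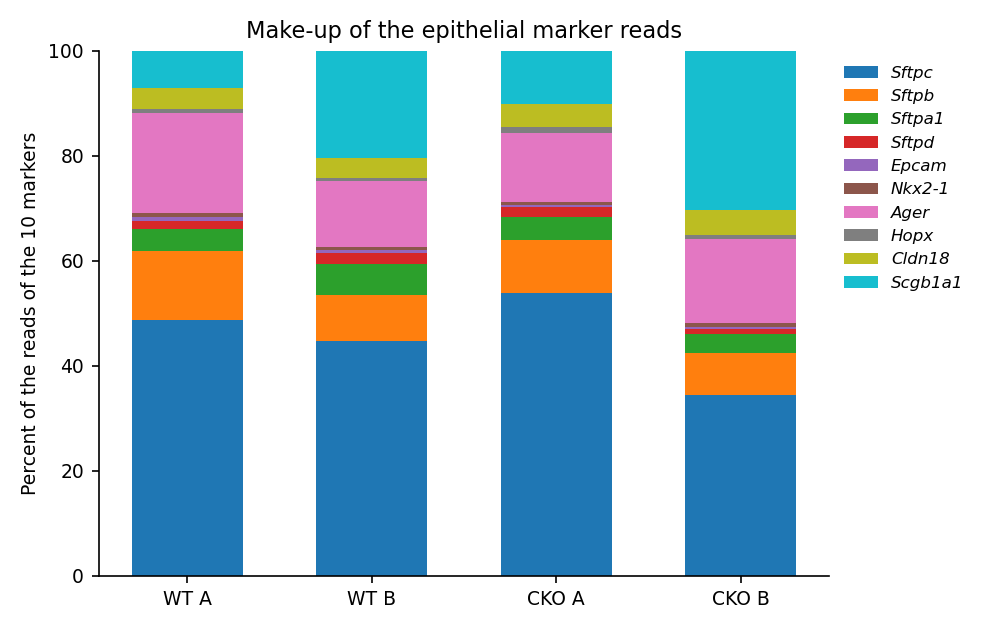
Share in percent of the reads of the 10 epithelial genes (vertical axis) that each gene holds in each library (horizontal axis). Sftpc takes from 34.4% (CKO B) to 53.8% (CKO A), and Scgb1a1 from 7.17% (WT A) to 30.3% (CKO B).

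The other club cell genes with enough reads to be tested, Scgb3a2 and Cyp2f2, were in similar proportion to Scgb1a1 in the 4 libraries. Scgb3a2, a second secretoglobin gene, had 5 reads in WT A and 65 in WT B, against 21 in CKO A and 26 in CKO B, or 4.90, 6.21, 5.11 and 4.55 per 100 reads of Scgb1a1. Cyp2f2, a cytochrome P450 gene of club cells, had 9, 109, 36 and 53 reads, or 8.82, 10.4, 8.76 and 9.28 per 100. All 4 intervals overlapped for each of these 2 genes, from 1.56 to 11.8 (WT A) and 2.95 to 6.74 (CKO B) for Scgb3a2, for example. The libraries stood in the order WT B, CKO B, CKO A, WT A for Scgb1a1, Scgb3a2 and Cyp2f2. For Scgb3a2 the step between the CKO libraries was within counting error (ratio of CKO A to CKO B 0.713, interval 0.381 to 1.32). The secretoglobin gene Scgb3a1, named after its values were seen, did not follow that order, with 8 reads in WT A and 9 in WT B, against 2 in CKO A and 1 in CKO B. Foxj1, the master regulator of ciliated cells, was at 1.10 to 2.07 CPM. Its order differed from that of Scgb1a1 only in that CKO B (48 reads) stood above WT B (47 reads). The counting intervals of these libraries overlapped (1.53 to 2.75 CPM in CKO B, 1.30 to 2.36 in WT B). The reads therefore do not show that Foxj1 departed from the order of the club cell genes. Of 14 other airway genes on the list 11 were in the table, and 7 of those had fewer than 10 reads in every library.

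None of the 10 epithelial genes passed the test for a difference between genotypes. In edgeR's quasi-likelihood test 0 of the 10, all of which passed the filter on low counts, had an adjusted p under 0.05, where 7.61% of all tested genes did (4.85% higher in CKO and 2.75% lower), and 0 had an unadjusted p under 0.05. DESeq2 and limma-voom also called 0 of them, against 8.22% and 5.59% of all genes. The same count of 0 came with RLE size factors (6.85% of all genes called), with library size alone (8.47%), with no filter (7.87%) and among the 7 with a mean of at least 1 CPM (6.84%). The genotypes overlapped for all 10 genes, whereas they did not overlap for 57.1% of all tested genes. The log2 change of CKO against WT was above 0 for 2 genes and below 0 for 8, with a median of -0.12 (-0.01 over all tested genes). In the authors' deposited table the log2 fold changes of the 10 ran from -0.62 to 0.60, and the lowest adjusted p among them was 1.

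The design leaves wide limits on such changes. The mean of Sftpc was 58.5 ± 39.6 CPM for WT and 55.7 ± 39.3 for CKO (SD, n = 2 libraries each), a log2 change of -0.07 ± 0.97 (SE, edgeR adjusted p = 0.974). The 95% interval reached from 0.0803-fold to 11.3-fold. Its standard error was larger than that of all but 1.35% of tested genes, and the median over the 10 was 0.64 against 0.17 over all tested genes. Ager had the narrowest interval, from 0.437-fold to 1.96-fold around a log2 change of -0.11 ± 0.41 (18.0 ± 8.74 CPM in WT, 16.7 ± 5.19 in CKO, edgeR adjusted p = 0.899). For Scgb1a1 the interval ran from 0.0280-fold to 29.6-fold. A failure to pass therefore does not show equal levels.

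Epcam had the lowest log2 change, -0.66 ± 0.64, and Hopx the highest, 0.56 ± 0.64, with edgeR adjusted p-values of 0.569 and 0.639. The others with a change of over 0.2 in size were Sftpa1 at -0.54 ± 0.86 and Sftpd at -0.41 ± 0.93. Leaving out a library decided the sign for most genes. Without WT B, the highest WT library, 9 of 10 lay above 0 with a median of 0.87, and Scgb1a1 then passed with WT A as the only WT library (log2 change 2.18, edgeR adjusted p = 0.0243, with 2.14% of all genes called in that fit and 1.56% called higher). With CKO A left out 9 of 10 lay below 0, with a median of -0.75 and 0 called (11.3% of all genes). In the fit without WT A, which keeps the libraries that share a column number, 9 of 10 lay below 0, with a median of -0.60 and 0 called (3.64% of all genes). Without CKO B 6 of 10 lay above 0, with a median of 0.21 and 0 called (6.42% of all genes).

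**Figure D4:**
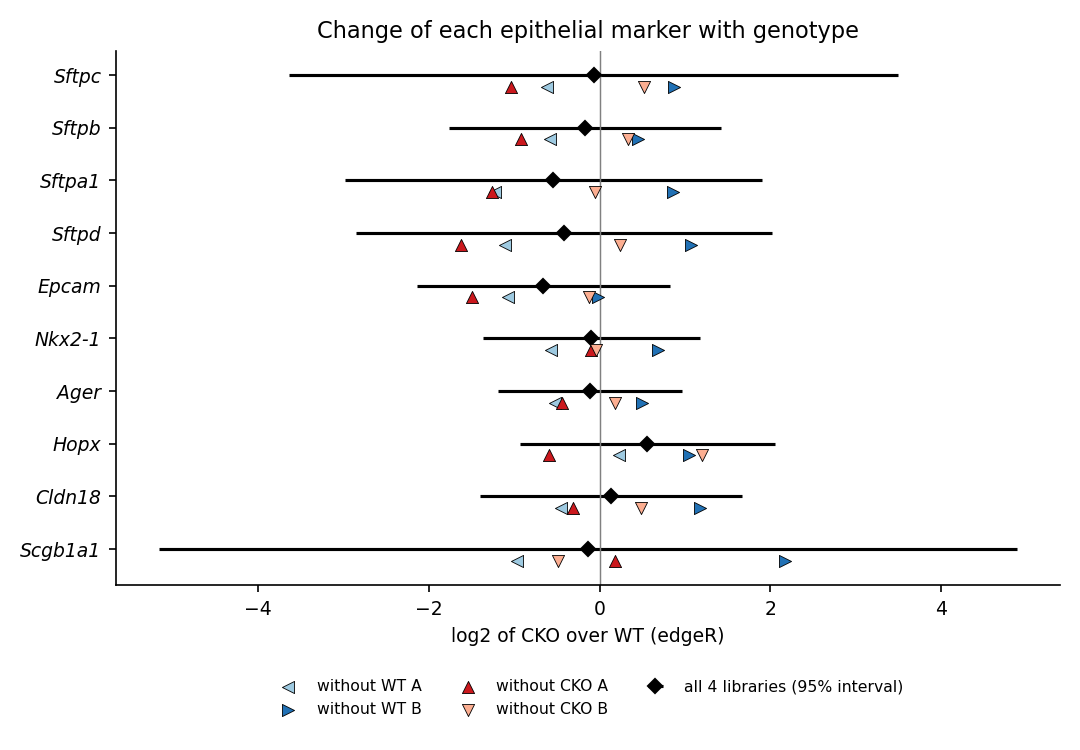
Log2 change of CKO against WT (horizontal axis) for each of the 10 epithelial genes, as black diamonds with 95% intervals from edgeR on all 4 libraries, and as coloured triangles with 1 library left out. All intervals include 0, and the triangles lie on both sides of 0 for every gene except Epcam.

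Other epithelial genes differed in how closely they followed the summed level of the 10. The gene with the pattern closest to the summed level of the 10 over the 4 libraries was Slc34a2, a phosphate transporter of type 2 cells, with a root mean square distance of 0.0911 on the log2 scale among 13091 candidate genes. It was at 3.95 CPM in WT A and 12.0 in WT B, against 9.94 in CKO A and 4.44 in CKO B. Next came Krt19, a keratin gene of simple epithelia (0.0982), Cxcl15, a chemokine gene of lung epithelium (0.0994), Lamp3, a lamellar body protein gene (0.129), and the adhesion receptor gene Adgrg1 (0.134). A set of 4 libraries leaves few degrees of freedom for such a likeness. Abca3, a lipid transporter of lamellar bodies, was at 11.5 to 16.2 CPM, and Etv5, a transcription factor gene, at 43.4 to 69.6 CPM. Neither had the libraries in the order of the summed level.

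Of 9 further type 2 cell genes 0 were called with all libraries in edgeR, in DESeq2 and in limma-voom. In edgeR 0 had an unadjusted p under 0.05 (median log2 change -0.15). The count of 0 called did not hold in every fit that left out a library. Without CKO A, with CKO B as the only CKO library, 8 of the 9 lay below 0 and 1 above, with a median of -0.47. The sum of the 9 was 130.2, 154, 143 and 107 CPM in WT A, WT B, CKO A and CKO B. Most of it came from Etv5 (69.6, 65.3, 63.4 and 43.4 CPM) and Lpcat1 (33.7, 36.6, 33.3 and 28.5 CPM), so it says little of the others. Of the 9 genes 4 were at least 1.5 times higher in WT B than in WT A and in CKO A than in CKO B. The 9 further type 1 cell genes summed to 531, 462, 573 and 637 CPM in the same order of libraries, and 1 of the 9 met the bound of 1.5 in both genotypes. Most of that sum came from Cav1 and from Emp2, which was at 214, 204, 213 and 194 CPM. Cav1 and Emp2 were lower in WT B than in WT A, whereas Aqp5, Pdpn, Rtkn2, Akap5, Clic5, Gprc5a and Krt7 were higher, as Ager, Hopx and Cldn18 were. Clic5, Krt7 and Emp2 were higher in CKO A than in CKO B, and the others were not. In edgeR 1 of the 9, Pdpn, was higher in CKO, and 3 had an unadjusted p under 0.05. Pdpn was at 6.10 CPM in WT A and 7.13 in WT B, against 12.8 in CKO A and 17.3 in CKO B (log2 change 1.18 ± 0.21, edgeR adjusted p = 0.0155). Pdpn, the podoplanin gene, is also made by fibroblasts and lymphatic endothelium. Its call was lost when either WT library was left out. Aqp5, a water channel of type 1 cells and glands, was at 1.27, 2.53, 3.58 and 3.62 CPM in WT A, WT B, CKO A and CKO B and did not pass (edgeR adjusted p = 0.174). Cav1, the caveolin gene, which endothelium and fibroblasts also express, contributed 293, 215, 316 and 398 CPM to the type 1 sum in that order. Its genotypes did not overlap, as for 57.1% of all tested genes, and it did not pass either (log2 change 0.49 ± 0.18, edgeR adjusted p = 0.146). Of 14 other airway genes 3 were tested in edgeR and limma-voom and 4 in DESeq2, with 0 called in each. In edgeR 0 of these had an unadjusted p under 0.05, with a median of -0.32.

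Of 18 genes common to most epithelia 8 were tested in edgeR and limma-voom and 15 in DESeq2, with 0 called in each. In edgeR 0 had an unadjusted p under 0.05, with a median of -0.28. Cdh1, the E-cadherin gene, was at 1.05 CPM in WT A and 2.68 in WT B, against 2.82 in CKO A and 2.24 in CKO B. Krt8 was at 0.439, 2.87, 1.75 and 0.949 CPM and its partner Krt18 at 0.439, 2.04, 1.41 and 0.388 CPM. The keratins were highest in WT B and next in CKO A, as Sftpc was. The list sum was 6.54 CPM in WT A and 19.5 in WT B, against 13.6 in CKO A and 10.1 in CKO B.

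Markers of other cells that the sort could hold were read in the same libraries. The 10 endothelial genes summed to 93.7 CPM in WT A and 137 in WT B, against 193 in CKO A and 108 in CKO B. WT B and CKO A were again the higher library of each genotype. In edgeR 0 of the 10 were called and 1 had an unadjusted p under 0.05 (median log2 change 0.29), and DESeq2 and limma-voom called 0. Pecam1, which defines endothelium, was at 15.9 to 29.0 CPM. The 7 mesothelial genes summed to 3.56, 10.3, 21.5 and 8.33 CPM, with 0 of 6 tested called in edgeR, DESeq2 or limma-voom, 1 at an unadjusted p under 0.05 in edgeR and a median of 1.15. For the mesothelial sum, too, WT B and CKO A were the higher library of each genotype. Msln, the mesothelin gene, had 13 reads in WT A and 76 in WT B, against 263 in CKO A and 2 in CKO B, a wider gap within CKO than any epithelial gene. The bound of 1.5 was met in both genotypes by 4 of 6 tested mesothelial, 4 of 8 pan-epithelial and 2 of 10 endothelial genes. It was met by 1 of 10 leukocyte, 1 of 5 erythroid and 0 of 12 mesenchymal genes, and by 1.56% of all tested genes.

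The 10 leukocyte genes summed to 35.3 CPM in WT A and 46.1 in WT B, against 81.4 in CKO A and 55.4 in CKO B. For the counts that follow, edgeR on all libraries called 4.85% of all tested genes higher in CKO and 2.75% lower. The shares in the fits that leave out a library are given above. The members Cd74, Fcer1g, Cd14, Laptm5 and Csf1r, 5 in all, were higher in CKO and 0 lower (edgeR, median log2 change 1.28), and 1 was higher without WT A and 1 without WT B. Ptprc, the pan-leukocyte CD45 gene, was at 0.922 to 2.47 CPM. The 7 erythroid genes in the table summed to 23.4, 30.5, 14.3 and 7.64 CPM, with 0 higher and 2 lower of 5 tested, Hba-a1 and Hba-a2 (median -1.503), and 0 lower without WT B or without CKO B, 1 without WT A and 4 without CKO A. The 12 mesenchymal genes summed to 67656, 68248, 78150 and 89922 CPM. Among them 1, the growth factor gene Fgf10, was higher and 0 lower (median 0.14), and 0 were called when WT A or WT B was left out. Without CKO A 4 mesenchymal genes were higher and 3 lower. The summed epithelial level was 62.5 CPM in WT A and 193 in WT B, against 155 in CKO A and 81.2 in CKO B, and the part of the other cell types in the differences between libraries was not tested.

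**Figure D5:**
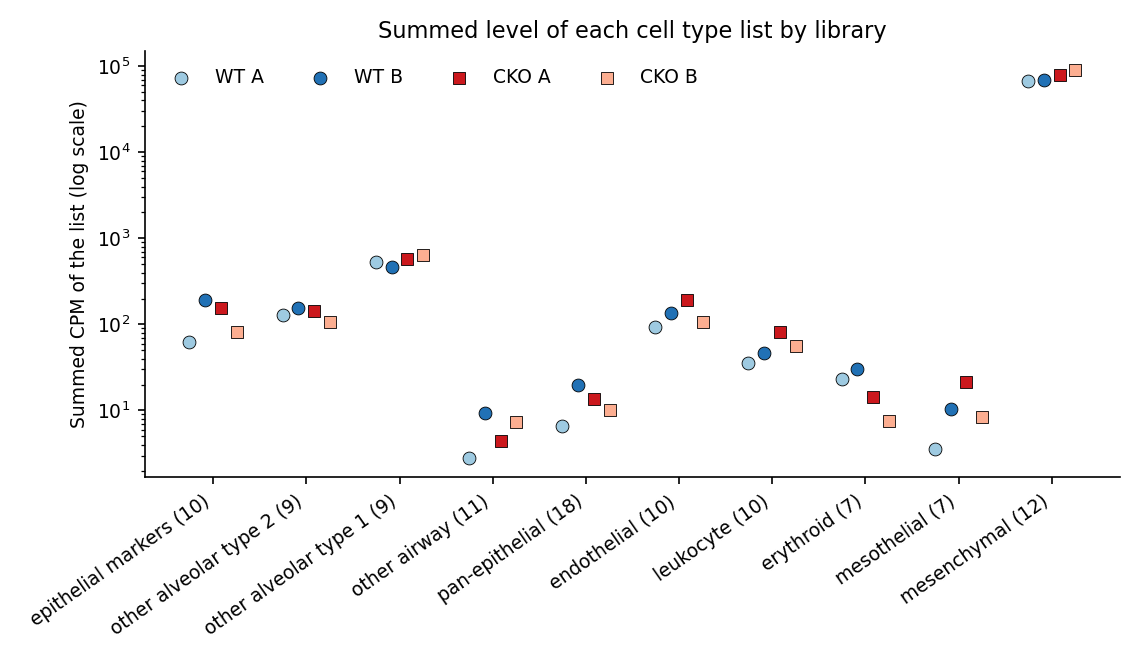
Summed CPM on a log scale (vertical axis) of the 10 epithelial genes and of 9 other lists (horizontal axis, number of genes in parentheses), with 1 point per library (circles WT, squares CKO). The epithelial sum is 62.5 to 193 CPM, the endothelial sum 93.7 to 193 CPM and the mesenchymal sum 67656 to 89922 CPM.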

How the data were processed

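One table, deposited by the authors, gives raw counts of reads for each gene in the 4 libraries. The submitters' processing notes name STAR, edgeR 3.28.1, Trimmomatic 0.36, cutadapt 2.5 and FastQC 0.11.8 with build GRCm38.p6, without their order. Counter and strand setting: not given in the sources used here. The deposited log2 fold changes and the deposited p-values and adjusted p-values are the authors' own, per the file headers. A further 4 columns of per-sample values were not used. The deposited gene length equals the exons of all transcripts added together, plus the number of exons, for 98.5% of 31171 matched genes, so values per length were computed from merged exons of GENCODE M21 on GRCm38. Count columns are named Control or Mutant and were read as WT and CKO.

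Analysis used R 4.3.3 with edgeR 4.0.16 (filterByExpr with a minimum count of 10, TMM, glmQLFit with robust estimation, glmQLFTest, Benjamini-Hochberg over 15210 genes, threshold 0.05). Genes varied between replicates with a biological coefficient of variation of 0.160. Each standard error is the size of the log2 change over the root of its F statistic. DESeq2 1.42.0 and limma 3.58.1 (voom), RLE size factors, library size alone, other filters and leaving out each library were alternatives. The fit was tested on simulated data. Ratios between libraries have exact binomial and levels exact Poisson 95% intervals. The genes and lists were chosen with earlier results of these data known. Named are the 10 epithelial genes, defining genes of other cell types, up to 4 genes with the lowest p per list, and the 5 genes with a mean of at least 1 CPM nearest in pattern to the summed level. Csf1r, the Y-linked genes, the antisense partners and the bound of 1.5 on library ratios were chosen after values were seen.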

Additional observations from a re-analysis of the deposited data

How the results depend on the processing

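With 2 libraries per genotype, single libraries set the sign of most changes. Leaving out each library gave log2 changes from -1.04 to 0.88 for Sftpc, -0.92 to 0.45 for Sftpb, -1.26 to 0.86 for Sftpa1, -1.63 to 1.08 for Sftpd, -0.56 to 0.69 for Nkx2-1, -0.52 to 0.50 for Ager, -0.59 to 1.20 for Hopx, -0.45 to 1.17 for Cldn18 and -0.96 to 2.18 for Scgb1a1. It gave -0.71 to 0.92 for the summed level, whose value with all libraries was -0.11. With limma-voom the change was 0.014 for Nkx2-1 and 0.47 for Scgb1a1, against -0.09 and -0.14 in edgeR. Over 97 values of the 10 genes under alternatives, 17 had the opposite sign and 1 of these, Scgb1a1 without WT B, passed. By library size alone the summed level in WT B was 199.6 CPM against 193 with TMM.

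The number of genes called was 1157 with all libraries, 2459 with no filter on low counts and 339 (without WT B) to 1842 (without CKO A) with a library left out. With a library left out, the median log2 change ran from -0.75 to 0.87 for the 10 epithelial genes. It ran from -0.47 to 0.59 for the other type 2 cell genes. Of type 1 cell genes 1 was called, 2 in DESeq2, 3 with no filter and 0 to 1 with a library left out. Of leukocyte genes 1 to 5 were called with a library left out. Of erythroid genes 2 were called, 1 in limma-voom, 4 with no filter and 0 to 4 with a library left out. Of mesenchymal genes 1 was called, 7 in DESeq2, 4 by library size alone, 7 with no filter and 0 to 7 with a library left out. The causes were not tested, beyond fewer samples and other gene sets in those fits. No paired analysis was possible because the count columns carry no replicate number of the labels. Depth limits Epcam, Nkx2-1 and Hopx, with 6 to 48 reads per library.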
